A study of Rattus with 52 samples.

Results

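The mitochondrial ribosomal proteins were taken as every row of the expression table whose gene name begins with Mrpl or Mrps followed by a digit, which gave 74 of 20624 genes, 45 named for the large subunit (Mrpl) and 29 for the small subunit (Mrps). All 74 passed the filter on low values in all 16 comparisons. Of the 74, 73 are known mitoribosome proteins, 47 of the large and 26 of the small subunit, since Mrps30 and Mrps18a are proteins of the large subunit despite their names. The remaining member, Mrps36, is known as a component of the 2-oxoglutarate dehydrogenase complex. Rows spelled mrpl9, mrpl11 and mrpl24 did not meet the rule and are described apart.

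RNA came from kidney and left ventricle (LV) of male Sprague Dawley rats, operated at the age of 10 weeks with either Sham surgery or 5/6Nx, in which 5/6 of the kidney mass is removed. All rats received a peritoneal catheter at week 6 after surgery, PD rats then underwent 3 exchanges of dialysate per day for 8 days, and Control rats carried the catheter without dialysate, with tissues collected at week 7. In each tissue the groups were 5/6Nx PD and 5/6Nx Control with 7 libraries each, and Sham PD and Sham Control with 6 libraries each. The kidney of a 5/6Nx rat is the remnant kidney, and every rat, Control rats included, underwent catheter surgery.

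Mitochondria carry their own ribosome, which translates the few proteins encoded by mitochondrial DNA, all of them core subunits of the respiratory chain or of ATP synthase. All of its proteins are encoded in the nucleus, made in the cytosol and imported, and its RNA comes from mitochondrial DNA, so the particle needs both genomes. The small subunit reads the message, the large subunit forms the peptide bond, and many of the proteins have no bacterial relative. Heart and kidney tubules are rich in mitochondria, and inherited defects of several of these proteins cause cardiomyopathy or other childhood disease in humans.

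The libraries held 16.7 M to 111.8 M reads in the gene table (median 44.2 M). The deposited log2 values were turned back into normalized reads, which are reads divided by the size factor of the library. These levels are not per length, so they are compared between groups and not between genes. The median coefficient of variation of the members within a group was 9.65% in kidneys of Sham Control rats to 17.0% in LV of 5/6Nx Control rats. The median log2 value of the members varied between libraries of a group with an SD of 0.15, pooled over the 8 groups. Members thus moved together within a library, and a count of members is not a count of independent results. Defining markers followed the tissue labels, with 8 of 8 cardiomyocyte markers higher and 8 of 8 proximal tubule markers lower in LV than in kidney of Sham Control rats. The library of replicate 2 of the LV Sham PD group stood apart, since its omission changed the number of genes past the threshold between PD and Control in LV of Sham rats to 1646, against 194 with it.

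The summed normalized reads of the 74 members were highest in LV of 5/6Nx PD rats, at 341109 ± 47900 (SD, n = 7), followed by 313860 ± 46879 in LV of 5/6Nx Control rats (SD, n = 7). In LV of Sham PD rats the sum was 262605 ± 8922 and in LV of Sham Control rats 275333 ± 32538 (SD, n = 6 each). The summed level in LV of 5/6Nx PD rats was 1.30 times that in LV of Sham PD rats, against 1.13 times per M reads (M, mega) of the library, and the ranges of the groups overlapped, at 259470 to 388475 in 5/6Nx PD and 249804 to 272842 in Sham PD. In kidney the 4 means lay close together, at 162780 ± 17831 in 5/6Nx PD, 161719 ± 17911 in 5/6Nx Control, 169290 ± 22559 in Sham PD and 162220 ± 11531 in Sham Control. Counted instead as reads per M reads of the library, the LV means were 6201 ± 537 in 5/6Nx PD, 5880.4 ± 417 in 5/6Nx Control, 5479 ± 216 in Sham PD and 5645 ± 413 in Sham Control. On that scale the kidney means were 4463 ± 382 in 5/6Nx PD, 4440 ± 341 in 5/6Nx Control, 4087 ± 395 in Sham PD and 3860 ± 229 in Sham Control. On that scale the sum in kidney of 5/6Nx Control rats was 1.15 times that in Sham Control rats, against 0.997 times in normalized reads, so the place of the remnant kidney depended on the scaling.

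**Figure D1:**
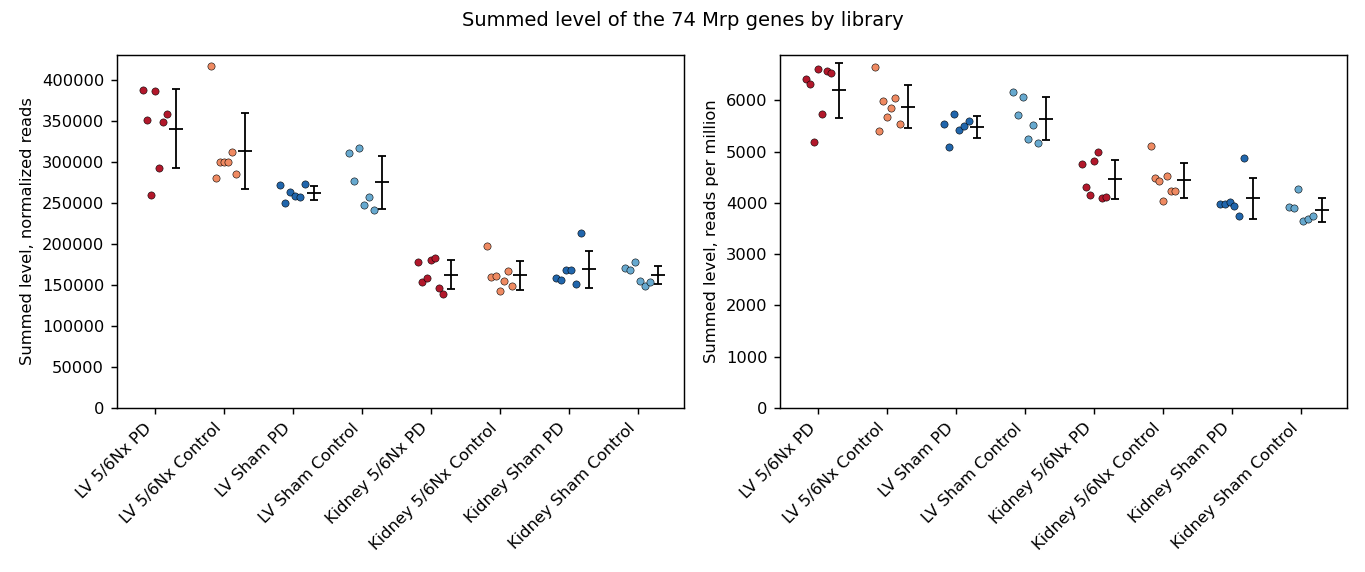
Summed normalized reads of the 74 mitochondrial ribosomal protein genes in each library (dots) of the 4 groups of LV and of kidney, with mean ± SD, in normalized reads (left) and as reads per M reads of the library (right). In normalized reads LV of 5/6Nx PD rats had the highest mean, 341109, the 4 kidney means lay between 161719 and 169290, and every LV library was above every kidney library, while per M reads the lowest LV library, at 5091, lay just under the highest kidney library, at 5110.4.

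The widest change of the members between surgeries was in LV of PD rats, where 46 of 74 were higher in 5/6Nx PD than in Sham PD rats and 0 were lower (limma, Benjamini-Hochberg adjusted p under 0.05 over all genes tested). Of all 15800 genes tested, 18.2% were higher and 19.6% lower. Fold changes of the 46 in mean reads reached 1.75, with a median of 1.35. The median log2 difference was 0.34 over the members and -0.03 over all genes. In 13 of the 74 members every 5/6Nx PD library was above every Sham PD library, which held for 4.03% of all genes.

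By adjusted p, Mrps10 and Mrps2 of the small subunit came first, while the large subunit protein Mrpl3 had the largest log2 difference. Mrps10, a conserved protein of the small subunit head, had 880.0 to 1362 (median 1093) normalized reads in 5/6Nx PD and 484 to 686 (median 625.2) in Sham PD, and the ranges did not overlap (1.75-fold, log2 difference 0.70, SE 0.11, adjusted p = 0.00058, limma). Mrps2, another conserved small subunit protein, had 2202 to 3393 (median 2885) reads in 5/6Nx PD and 1487 to 1923 (median 1647) in Sham PD, again without overlap (1.71-fold, log2 difference 0.72, SE 0.11, adjusted p = 0.00075, limma). The Control groups lay between them for Mrps10, with medians of 992 in 5/6Nx Control and 832 in Sham Control. The gene of Mrps2 overlaps that of Pierce1 in the RefSeq annotation of GRCr8, so its reads may include some of its neighbour.

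Among large subunit proteins, Mrpl50, which has no bacterial relative, had 2896 to 4767 (median 3766) reads in 5/6Nx PD and 1965 to 2735 (median 2242) in Sham PD (1.66-fold, log2 difference 0.70, SE 0.12, adjusted p = 0.00086, limma). Mrpl47, at the exit of the peptide tunnel, had 2271 to 3545 (median 3022) in 5/6Nx PD and 1638 to 2026 (median 1876) in Sham PD (1.55-fold, log2 difference 0.59, SE 0.10, adjusted p = 0.001, limma). Neither range overlapped, though Mrpl47 lies over Actl6a and Ndufb5 in the annotation. Mrpl35, a conserved protein, had 4168 to 6461 (median 5177) reads in 5/6Nx PD and 3205 to 3966 (median 3457) in Sham PD (1.51-fold, log2 difference 0.57, SE 0.10, adjusted p = 0.0011, limma). Mrpl19, also conserved, had 2346 to 3489 (median 3229.6) in 5/6Nx PD and 1767 to 2361 (median 2052) in Sham PD, with ranges that met (1.52-fold, log2 difference 0.57, SE 0.10, adjusted p = 0.001, limma). These 6 members kept adjusted p of at most 0.0038 when any 1 library was left out.

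**Figure D2:**
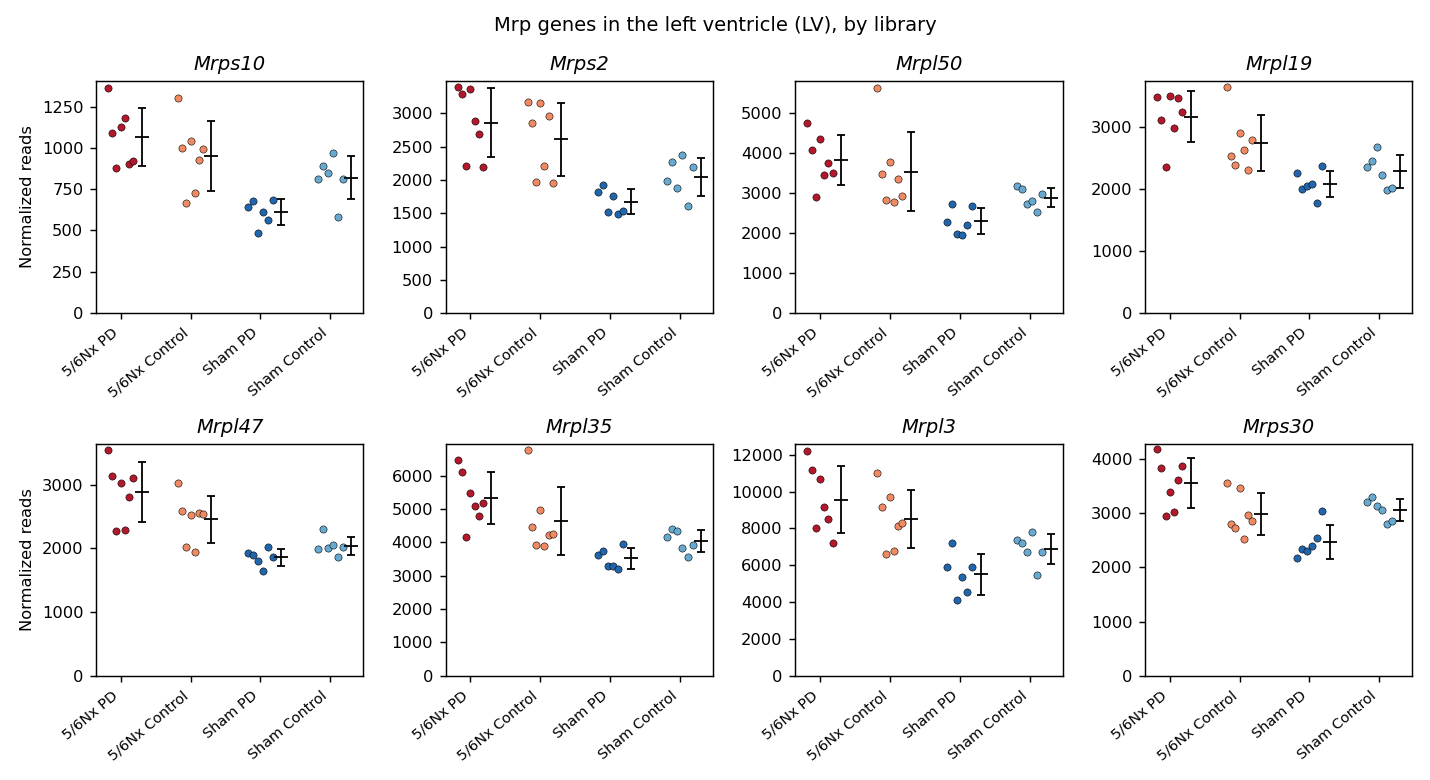
Normalized reads per library (dots, with mean ± SD) of leading members in the 4 LV groups. For Mrps10, Mrps2, Mrpl50 and Mrpl47 all 5/6Nx PD libraries lay above all Sham PD libraries, while both Control groups overlapped the 5/6Nx PD group.

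Of the members with known human disease, Mrpl3, Mrpl44 and Mrps22 are linked to cardiomyopathy. Mrpl3 had 7186 to 12201 (median 9181) reads in LV of 5/6Nx PD rats and 4104 to 7224 (median 5628) in LV of Sham PD rats, a 1.74-fold difference with a narrow overlap (log2 difference 0.78, SE 0.14, adjusted p = 0.0015, limma). Mrpl44 had 2556 to 4155 (median 3609) in 5/6Nx PD and 2215 to 2784 (median 2648) in Sham PD (log2 difference 0.40, SE 0.10, adjusted p = 0.0078, limma), and Mrps22 had 1894 to 2888 (median 2331) in 5/6Nx PD and 1534 to 2159 (median 1812) in Sham PD (log2 difference 0.37, SE 0.10, adjusted p = 0.0091, limma). Both overlapped between groups. Mrps7, of the small subunit head, rose by less (0.25 on the log2 scale, adjusted p = 0.048, limma). So did Mrps12, a protein of the decoding centre for which no link to disease is claimed here (0.29, adjusted p = 0.023, limma). Mrps16 had medians of 6864 in 5/6Nx PD and 5294 in Sham PD and did not pass (log2 difference 0.25, SE 0.13, adjusted p = 0.14, limma).

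Mrpl12, the stalk protein that recruits translation factors and the member with the most reads in LV, had 14109.9 to 23956 (median 21602) reads in 5/6Nx PD and 13333 to 17479 (median 15391) in Sham PD (1.30-fold, log2 difference 0.37, SE 0.12, adjusted p = 0.026, limma). The 3 Mrps18 genes are paralogs whose proteins sit at different places of the ribosome. Mrps18a passed (log2 difference 0.35, SE 0.10, adjusted p = 0.011, limma), while Mrps18b and Mrps18c had log2 differences of 0.27 and 0.20 with adjusted p of 0.073 and 0.16. By structural class, 16 of 26 conserved and 15 of 21 mitochondria-specific large subunit proteins were higher, with medians of 0.37 and 0.39. In the small subunit 10 of 16 conserved and 4 of 10 mitochondria-specific proteins were higher, with medians of 0.33 and 0.28. At the other end Mrps26, Mrpl14 and Mrpl52, chosen after their values were seen as those of least change, had log2 differences of -0.04, -0.003 and 0.01.

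Genes that work beside the ribosome were also higher, in most lists, in LV of 5/6Nx PD than of Sham PD rats. Beside them stood 18.2% higher and 19.6% lower of all 15800 genes tested. Of the mitoribosome proteins with other names 3 of 4 rose, among them Dap3 by 0.55 and Ptcd3 by 0.50 on the log2 scale. Translation factors rose in 12 of 15 (median 0.50), with the elongation factors Guf1 at 0.67 and Gfm1 at 0.59. Aminoacyl-tRNA synthetases rose in 15 of 17 (median 0.41), assembly factors in 14 of 20 (median 0.30) and genes of mitochondrial DNA transcription in 5 of 8 (median 0.32), the last including Tefm, the elongation factor of mitochondrial RNA polymerase, at 0.66. Nuclear subunits of the respiratory chain rose in 18 of 26 (median 0.38), with Sdhc and Sdhd, membrane anchors of complex II, both at 0.59. Of 10 regulators of mitochondrial biogenesis 2 rose, near the share of all genes. They were the nuclear receptor Esrra at 0.61 and its coactivator Ppargc1a at 1.10. No gene of these lists was lower in the deposited values, and per M reads 1 biogenesis regulator was.

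Cell type markers moved between the same groups. Of 8 cardiomyocyte markers 7 were higher (median 0.39), and their summed level was 3765245 to 5300678 reads in 5/6Nx PD and 2636042 to 3585427 in Sham PD. Macrophage markers were lower in 8 of 8 (median -1.16), with sums of 10517 to 25378 in 5/6Nx PD and 30914 to 47433 in Sham PD. Fibroblast markers were lower in 6 of 7 (median -1.24), with sums of 35627 to 98304 in 5/6Nx PD and 108583 to 147392 in Sham PD. Endothelial markers were lower in 5 of 7 (median -0.50), with sums of 58888 to 115948 in 5/6Nx PD and 92576 to 131568 in Sham PD. Erythroid markers were lower in 2 of 4 and neutrophil markers higher in 1 of 8. No marker of these lists had 0 reads in every library of the LV groups, and the part of these markers in the result was not tested. In bulk tissue, fewer cells of a type and less RNA per cell cannot be told apart.

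Per M reads of the library, a scaling chosen after seeing the data, 27 members were higher and 0 lower in this comparison, with a member median of 0.17 against -0.17 over all genes, so that the members stood 0.34 above all genes, against 0.37 in the deposited values. Leaving out 1 library gave 37 (without replicate 1 of LV 5/6Nx PD) to 62 (without replicate 3 of that group) members higher, and 38 without replicate 2 of LV Sham PD, with 37 of the 46 past the threshold in every such fit.

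In LV of Control rats, 0 of 74 members passed the threshold between 5/6Nx and Sham, where 0.0697% of all 15792 genes did, and 0 passed with limma-voom. At an unadjusted p under 0.05 stood 13 members, all higher in 5/6Nx, beside 2757 of all genes, of which 1227 were higher (7.77% of those tested). Of the 74 differences 70 were positive, against 49.9% of those of all genes. The member median was 0.17, against 0.00 over all genes, where the SD of the member median between libraries of a group was 0.15. These counts of members are therefore not counts of independent results. The smallest p belonged to Mrps12, with 2211 to 4193 (median 2536) reads in 5/6Nx Control, against 1728 to 2441 (median 1988) in Sham Control (1.34-fold, log2 difference 0.39, SE 0.13, adjusted p = 0.16, limma). Mrpl36 followed (1.37-fold, log2 difference 0.40, SE 0.13, adjusted p = 0.16, limma), and then Mrpl37 (1.23-fold, log2 difference 0.29, SE 0.10, adjusted p = 0.18, limma). The genes of all 3 overlap another coding gene in the RefSeq annotation of GRCr8. The highest Mrps12 and Mrpl36 values, 4193 and 2744, came from replicate 1 of LV 5/6Nx Control, against group medians of 2536 and 1564. The ranges of all 3 members overlapped between groups. In 0 of 74 members was every 5/6Nx Control library above every Sham Control library, which held for 0.431% of all genes. Of 8 cardiomyocyte markers 0 passed (median 0.29), with sums of 3727754 to 5066502 reads in 5/6Nx Control and 3035116 to 4455449 in Sham Control.

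**Figure D3:**
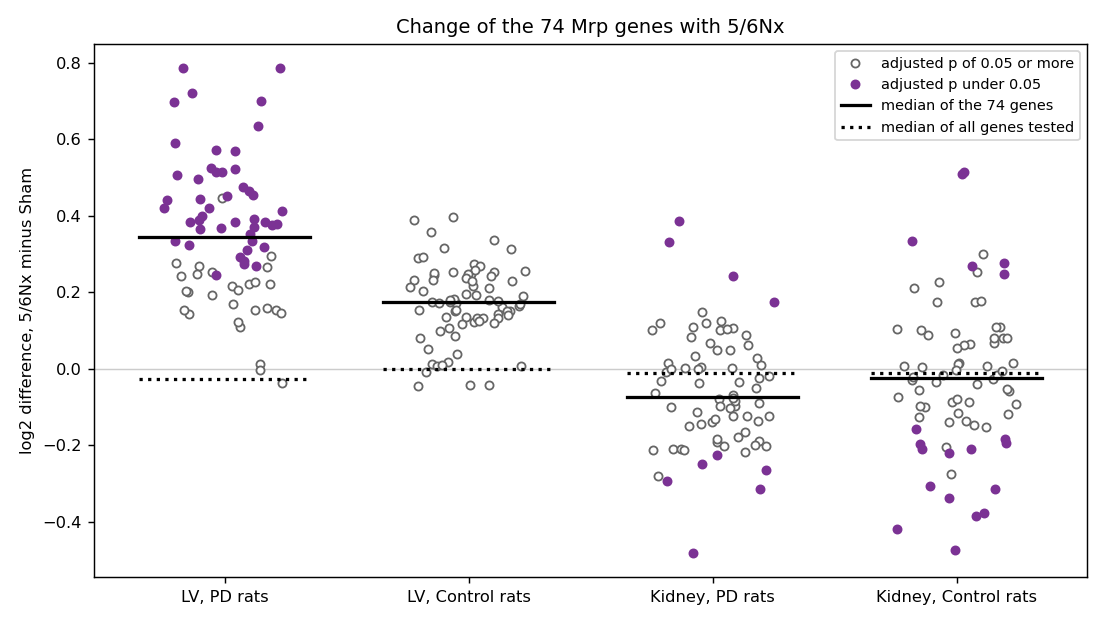
Log2 difference between 5/6Nx and Sham for each member (dots) in LV of PD rats, LV of Control rats, kidney of PD rats and kidney of Control rats, filled where the adjusted p was under 0.05, with the median of the members (line) and of all genes tested (dotted). The member medians were 0.34 in LV of PD rats, 0.17 in LV of Control rats, -0.07 in kidney of PD rats and -0.02 in kidney of Control rats.

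Whether PD acted differently on LV of 5/6Nx and of Sham rats was tested as an interaction, the PD effect in 5/6Nx minus that in Sham. Mrps30 was the 1 of 74 members to pass, where 0.693% of all 16312 genes did. Mrps30 is a large subunit protein with no bacterial relative. After 5/6Nx it had 2949 to 4179 (median 3619) reads with PD, against 2517 to 3553 (median 2853) in Control rats. After Sham surgery it had 2174 to 3047 (median 2365) reads with PD, against 2803 to 3299 (median 3095) in Control rats. Its median was higher with PD after 5/6Nx and lower with PD after Sham surgery, with overlapping ranges in both (interaction log2 difference 0.55, SE 0.13, adjusted p = 0.044, limma). An unadjusted p under 0.05 was found in 21 members, all with a positive interaction, beside 2961 of all genes, of which 1481 were positive (9.08% of those tested), and the member median was 0.17 against -0.03 over all genes. Without any 1 library the adjusted p of Mrps30 was 0.019 to 0.090, and without the filter on low values it did not pass, so this call rests on the settings. Macrophage markers had a negative interaction in 3 of 8, with sums of 10517 to 25378 reads in 5/6Nx PD, 15040.1 to 30242 in 5/6Nx Control, 30914 to 47433 in Sham PD and 16983 to 39429.7 in Sham Control, and their part in the result was not tested.

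PD against Control within one surgery gave 0 members past the threshold in each of the 4 tissue and surgery pairs. Over all genes limma called 194 in LV and 23 in kidney of Sham rats, and 14 in LV and 2 in kidney of 5/6Nx rats. The paper, with DESeq2, reported far more genes past its threshold in each of these pairs. The 0 members here therefore do not show that PD left the members unchanged. The paper's calls for the members were not used. In LV of Sham rats 1.23% of 15759 genes passed. There 16 members had an unadjusted p under 0.05, all lower with PD, beside 3072 of all genes, of which 1562 were lower (9.91% of those tested), and the member median was -0.06. Mrps30 came first (0.806-fold, log2 difference -0.30, SE 0.08, adjusted p = 0.085, limma), with the values given above. Mrpl18, of the central protuberance, had 3943 to 4739 (median 4183) reads in Sham PD and 4633 to 6219 (median 5035) in Sham Control (0.814-fold, log2 difference -0.29, SE 0.08, adjusted p = 0.10, limma), and Mrpl50 had 1965 to 2735 (median 2242) in Sham PD and 2523 to 3168 (median 2901) in Sham Control (0.799-fold, log2 difference -0.32, SE 0.09, adjusted p = 0.11, limma). All 3 overlapped between groups. With limma's array quality weights, or without replicate 2 of LV Sham PD, 6 members passed, all lower with PD. With the weights 9.86% of all genes passed and 4.71% were lower, and without that library 10.4% passed and 5.45% were lower. Beside the ribosome, the elongation factor Guf1 (-0.46), the synthetase Yars2 (-0.43) and Tefm (-0.34) fell in this comparison. Each was the 1 gene past the threshold of its list, of 15 translation factors, 17 synthetases and 8 genes of mitochondrial DNA transcription, the other lists of mitochondrial genes had 0, and per M reads no synthetase passed. Neutrophil markers were higher with PD in 6 of 7 and macrophage markers in 3 of 8, and the neutrophil sums were 11030.2 to 23747 reads in Sham PD and 2128 to 7928 in Sham Control. Their part in the member values was not tested.

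In LV of 5/6Nx rats 0.0896% of 15622 genes passed and 0 members did. There 5 members had an unadjusted p under 0.05, all higher with PD, beside 1333 of all genes, of which 578 were higher (3.7% of those tested). Of the 74 differences 68 were positive, against 49.4% of those of all genes, with a median of 0.11 against -0.002 over all genes. That median is smaller than the SD of the member median between libraries of a group, 0.15, and the 74 signs are not independent. The first 3 were Mrps30 (log2 difference 0.24, SE 0.10, adjusted p = 0.50), Mrpl39 (log2 difference 0.23, SE 0.10, adjusted p = 0.54) and Mrpl48 (log2 difference 0.24, SE 0.11, adjusted p = 0.56), each 1.19-fold higher in mean reads with PD (limma). Neutrophil markers were higher with PD in 3 of 8 here too, with sums of 8473 to 28475 in 5/6Nx PD and 5427 to 14262 in 5/6Nx Control. With both surgeries in one fit, 0 members passed and 0.417% of 16312 genes did. In that fit 2 members, Mrps18c and Mrpl48, had an unadjusted p under 0.05, beside 1294 of all genes, with log2 differences of 0.18 and 0.16, followed by Mrps16 at 0.16.

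In kidney, PD against Control also gave 0 members past the threshold. In kidney of Sham rats 0.143% of 16090 genes and 0 members passed, and 1 member, Mrpl1, had an unadjusted p under 0.05, beside 2780 of all genes. Mrpl1, a protein of the ribosomal stalk that releases tRNA, had 272 to 450.3 (median 339) reads in Sham PD and 374 to 646 (median 461) in Sham Control (log2 difference -0.34, SE 0.12, adjusted p = 0.19, limma), with overlap. Mrpl36 and Mrpl54 followed with log2 differences of 0.23 and 0.22. In kidney of 5/6Nx rats 0.0121% of 16481 genes passed, 0 members passed and 0 had an unadjusted p under 0.05, beside 689 of all genes. The smallest p there belonged to Mrpl45, Mrpl38 and Mrpl32, with log2 differences of -0.14, -0.12 and 0.11. The interaction in kidney gave 0 members and 0% of 17096 genes, while 765 genes and 0 members had an unadjusted p under 0.05. Its smallest p belonged to Mrpl54 (-0.23), Mrpl55 (-0.20) and Mrps15 (-0.17). Both surgeries in one fit gave 0 members and 0.175% of 17096 genes, led by Mrpl45 (-0.11), Mrpl38 (-0.11) and Mrpl13 (0.12).

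The members did not move as one group in the remnant kidney. In Control rats 6 of 74 members were higher and 14 lower in 5/6Nx than in Sham kidney, while 24.4% of all 16419 genes were higher and 27.7% lower. In both directions the members passed less often than all genes. The member median was -0.02, against -0.01 over all genes. The tunnel exit, where the new peptide leaves the ribosome towards the inner membrane, had 3 of 5 listed members higher and 0 lower.

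Mrps31, a small subunit protein with no bacterial relative, fell most clearly, to 1531 to 1930.0 (median 1651) reads in 5/6Nx Control, against 1970.2 to 2634 (median 2392) in Sham Control, without overlap (0.705-fold, log2 difference -0.47, SE 0.08, adjusted p = 0.00028, limma). Mrpl50 had 1504 to 1978 (median 1764) in 5/6Nx Control, against 2018 to 2647 (median 2316) in Sham Control (0.754-fold, log2 difference -0.38, SE 0.07, adjusted p = 0.0007, limma), also without overlap, although it was among the members higher in LV of 5/6Nx PD rats. Mrpl49, the member with the fewest reads in both tissues, had 259.5 to 387 (median 287) in 5/6Nx Control, against 415 to 466 (median 444) in Sham Control (0.694-fold, log2 difference -0.42, SE 0.09, adjusted p = 0.0014, limma), and its gene overlaps Syvn1. Mrps9, a conserved small subunit protein, had 2917 to 3867 (median 3257) in 5/6Nx Control, against 3794 to 4652 (median 4306) in Sham Control with a narrow overlap (0.765-fold, log2 difference -0.38, SE 0.07, adjusted p = 0.00092, limma). Mrpl16 and Mrps36 were lower as well (-0.31 and -0.34 on the log2 scale, adjusted p = 0.0027 and 0.0033, limma).

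Of the 6 members that rose, Mrpl45, which anchors the ribosome to the inner membrane at the tunnel exit, had 2039 to 3229.9 (median 2184) reads in 5/6Nx Control, against 1858 to 1969 (median 1914) in Sham Control, the one member with all 5/6Nx libraries above all Sham libraries, which held for 11% of all genes (1.21-fold, log2 difference 0.25, SE 0.09, adjusted p = 0.034, limma). Mrpl23 and Mrpl17, also listed at the tunnel exit, were 1.52- and 1.22-fold higher. Mrpl23 had 1281 to 3134 (median 1471) in 5/6Nx Control, against 915 to 1451 (median 1048) in Sham Control (log2 difference 0.51, SE 0.17, adjusted p = 0.021, limma). Mrpl17 had 3956 to 5850.5 (median 4528) in 5/6Nx Control, against 3386 to 4405 (median 3813) in Sham Control (log2 difference 0.28, SE 0.09, adjusted p = 0.015, limma). Both overlapped between groups. Mrpl52, a large subunit protein with no bacterial relative, had 2591 to 5196 (median 3012) in 5/6Nx Control, against 1893 to 2978 (median 2165) in Sham Control (1.47-fold, log2 difference 0.51, SE 0.14, adjusted p = 0.0071, limma). Mrpl54 and Mrpl14 completed the 6, with log2 differences of 0.33 and 0.27 and an adjusted p of 0.038 each. All 6 were highest, among the 5/6Nx Control kidneys, in the library of replicate 1, and 6 members were higher and 18 lower without it.

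**Figure D4:**
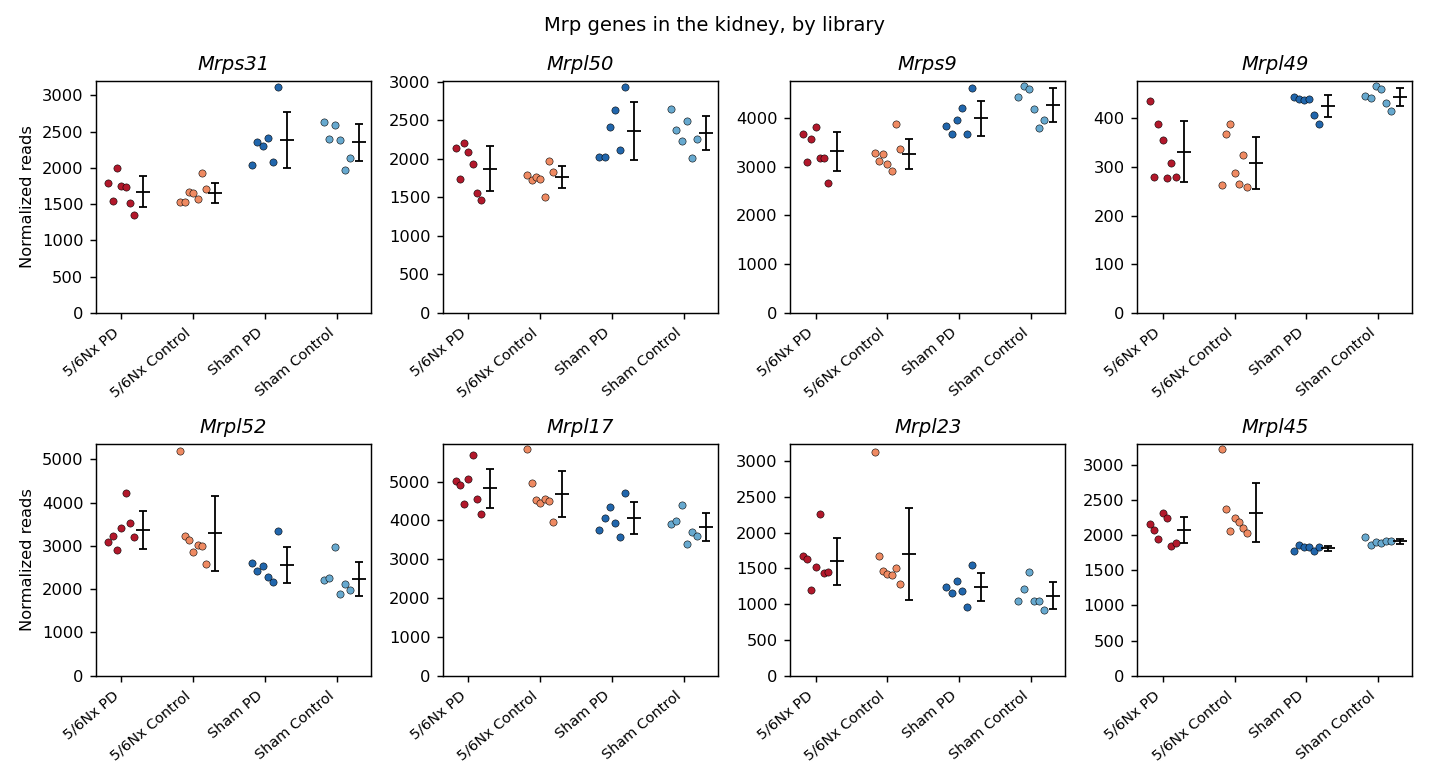
Normalized reads per library (dots, with mean ± SD) of members past the threshold in the remnant kidney, by group. Mrps31 lay at 1531 to 1930 in 5/6Nx Control and 1970.2 to 2634 in Sham Control, whereas Mrpl45 lay at 2039 to 3230 in 5/6Nx Control and 1858 to 1969 in Sham Control.

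In PD rats 4 of 74 members were higher and 6 lower in 5/6Nx than in Sham kidney, against 20.2% higher and 19.9% lower of all 16450 genes. Here too the members passed less often than all genes in both directions. Mrps31 again led the lower ones, with 1348 to 1996 (median 1733) reads in 5/6Nx PD and 2036 to 3109 (median 2328) in Sham PD, without overlap (0.701-fold, log2 difference -0.48, SE 0.10, adjusted p = 0.0022, limma). Mrps5, Mrps9, Mrpl49, Mrpl53 and Mrpl50 were lower by -0.22 to -0.31 on the log2 scale. Mrpl52 led the higher ones, with 2897 to 4224 (median 3233) reads in 5/6Nx PD and 2162 to 3348 (median 2479) in Sham PD (1.32-fold, log2 difference 0.39, SE 0.10, adjusted p = 0.0081, limma), followed by Mrpl17 (0.24), Mrpl45 (0.17) and Mrpl23 (0.33). The comparison in PD rats shares no library with that in Control rats. Proximal tubule markers were lower in 7 of 8 and macrophage markers higher in 8 of 8 here as well, with proximal tubule sums of 84949 to 202558 reads in 5/6Nx PD and 306872 to 411326 in Sham PD. Leaving out 1 library gave 3 (without replicate 2 of kidney 5/6Nx PD) to 11 members past the threshold, and 5 or 6 without replicate 2, 4 or 6 of kidney Sham PD.

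The balance of higher and lower members in the remnant kidney depended on the scaling. Per M reads of the library, the median of all genes itself moved to 0.16 in Control rats, and 31 members were then higher and 4 lower, with all 6 of the higher ones and Mrps31, Mrpl50, Mrps9 and Mrpl49 still past the threshold. With size factors taken within the fit, 7 were higher and 9 lower. In PD rats the split per M reads was 14 higher and 1 lower, the lower one being Mrps31. Relative to all genes, the member median was -0.01 in deposited values and 0.02 per M reads in Control rats, and -0.06 and -0.04 in PD rats. The share of all genes past the threshold per M reads was not set beside these counts. They therefore do not show that the members rose more often than other genes. In Control rats 13 members passed without replicate 5 of kidney 5/6Nx Control or replicate 4 of kidney Sham Control, and 24 without replicate 1 of kidney 5/6Nx Control. The higher members numbered 3 without replicate 2 of kidney 5/6Nx Control or without replicate 4, 5 or 6 of kidney Sham Control, and the lower ones 8 without replicate 1 of kidney Sham Control and 9 without its replicate 3 or replicate 5 of kidney 5/6Nx Control.

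Other mitochondrial lists in the remnant kidney of Control rats held more lower than higher genes, where 27.7% of all 16419 genes were lower and 24.4% higher. Synthetases were lower in 10 of 17 (Iars2 at -0.62, Lars2 at -0.42), translation factors in 7 of 15 (Mrrf, which recycles the ribosome, at -0.70, and Gfm1 at -0.60), genes of mitochondrial DNA transcription in 6 of 8 and nuclear respiratory chain subunits in 14 of 26 (Sdha at -0.77, Ndufs1 at -0.78), with 0 higher in these 4 lists. Per M reads, 8 respiratory chain subunits were lower and 0 higher, of the translation factors 4 were lower and 2 higher, of the synthetases 4 lower and 3 higher, and of the genes of mitochondrial DNA transcription 1 lower and 1 higher. Assembly factors were lower in 4 of 20, under the share of all genes, and higher in 1. Per M reads 2 of them were lower and 6 higher. Biogenesis regulators were lower in 6 of 10 and higher in 2, against 3 lower and 3 higher per M reads, and among them Myc rose by 1.31 and Ppargc1b fell by 1.14 on the log2 scale. The tissue itself changed too. Proximal tubule markers were lower in 7 of 8, with sums of 79499.6 to 295648 reads in 5/6Nx Control and 371765 to 470011 in Sham Control, and these ranges did not overlap. Macrophage markers were higher in 8 of 8, with sums of 21090.0 to 88286 in 5/6Nx Control and 9474 to 20693 in Sham Control, and fibroblast markers were higher in 3 of 7, with sums of 10518 to 76111 in 5/6Nx Control and 7951 to 16044 in Sham Control. The part of these shifts in the member values was not tested.

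Most members were higher in the LV than in the kidney. In Sham Control rats 60 of 74 were higher and 3 lower in LV than in kidney, against 37.4% higher and 41.2% lower of all 16520 genes (limma). The member median was 0.67, against -0.05 over all genes, and the summed level in LV was 1.70 times that in kidney. In 48 members every LV library was above every kidney library, which held for 29.3% of all genes. Per M reads 52 members were higher and 6 lower, and the members stood 0.71 above the median of all genes, against 0.72 in deposited values. Cell types of the tissues differed as well, with 3035116 to 4455449 summed reads of cardiomyocyte markers in LV and 218 to 346 in kidney. The labels do not say which LV and kidney libraries came from one rat, so the tests took them as independent.

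Mrpl42, a large subunit protein with no bacterial relative, differed most, with 5310.2 to 6763 (median 6148) reads in LV and 1638 to 2030.4 (median 1844) in kidney of Sham Control rats (3.40-fold, log2 difference 1.70, SE 0.08, adjusted p = 7.7e-12, limma). Mrps15, a conserved small subunit protein, had 6379 to 8016 (median 7351) in LV and 2112 to 2842 (median 2404) in kidney (3.01-fold, log2 difference 1.55, SE 0.08, adjusted p = 1.1e-10, limma). Mrpl45, the membrane anchor, had 5076 to 6350.2 (median 5819.9) in LV and 1858 to 1969 (median 1914) in kidney (3.02-fold, log2 difference 1.54, SE 0.06, adjusted p = 2.2e-12, limma). None of the 3 overlapped between tissues, nor did Mrpl13 (2.90-fold), Mrpl40 (2.79-fold) or Mrps36 (2.62-fold). Mrpl12 was 2.34-fold and Mrpl3 1.97-fold higher in LV. Of the Mrps18 paralogs, Mrps18b was 2.26-fold and Mrps18c 1.65-fold higher in LV, while Mrps18a had medians of 2582 in LV and 2413 in kidney and did not pass (log2 difference 0.17, SE 0.10, adjusted p = 0.15, limma). The smallest differences belonged to Mrps25 (0.02), Mrps11 (0.03), Mrpl36 (0.03) and Mrps31 (-0.05), all with overlapping ranges.

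**Figure D5:**
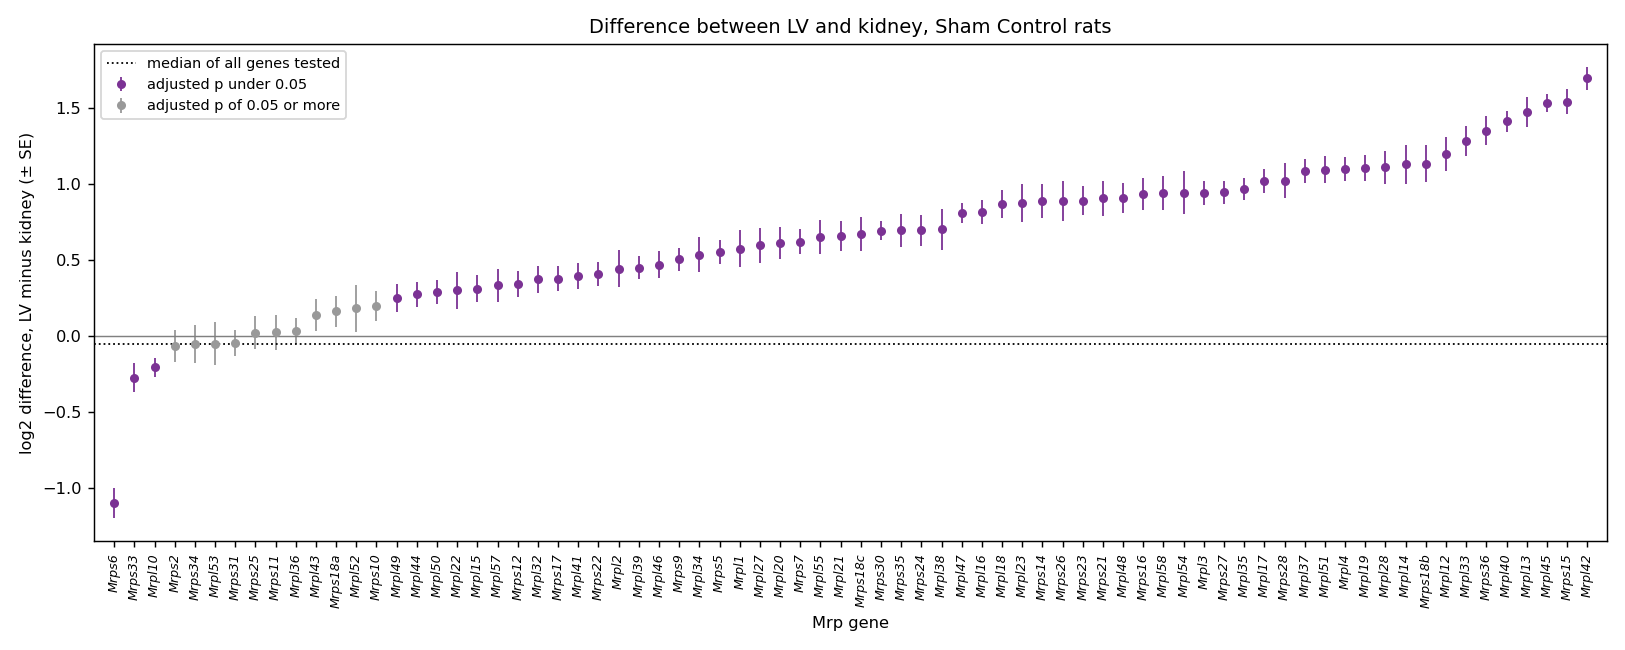
Log2 difference (LV minus kidney, ± SE) of each member in Sham Control rats, ordered by size, grey where the adjusted p was 0.05 or more, with the median of all genes tested (dotted). Mrpl42 was highest at 1.70 and Mrps6 lowest at -1.10.

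Mrps6, a conserved small subunit protein, went the other way. It had 1874 to 2636 (median 2131) reads in LV and 4259.6 to 5934 (median 4677) in kidney of Sham Control rats, without overlap (0.454-fold, log2 difference -1.10, SE 0.10, adjusted p = 6.2e-08, limma). Mrps33 had 1417 to 2084 (median 1571) in LV and 1687 to 2254 (median 2039) in kidney (log2 difference -0.27, SE 0.10, adjusted p = 0.018, limma), with overlap, and Mrpl10, at the base of the stalk, had 2424 to 2929.8 (median 2753) in LV and 2985 to 3409 (median 3115) in kidney (log2 difference -0.20, SE 0.06, adjusted p = 0.0078, limma), without overlap. The gene of Mrps6 overlaps Slc5a3, which encodes a sodium-coupled transporter of myo-inositol, in the RefSeq annotation of GRCr8. Slc5a3 was not analysed here, and how much of the Mrps6 value comes from shared sequence was not tested.

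Within the other 3 groups, which share no library with Sham Control or with one another, the direction was the same for most members. In Sham PD rats 57 were higher and 4 lower in LV, against 36.6% and 39% of all genes, the lower ones being Mrps6 (-1.40), Mrps33 (-0.45), Mrpl10 (-0.38) and Mrps2 (-0.26). In 5/6Nx Control rats 67 were higher and 1 lower, against 32.6% and 38.9% of all genes, and in 5/6Nx PD rats 69 were higher and 1 lower, against 33.6% and 40.4%. Mrps6 was the 1 lower member in both, at -1.06 and -1.13. Mrpl42 led the higher members there too, with log2 differences of 1.91 in 5/6Nx Control and 2.12 in 5/6Nx PD rats. Per M reads the splits were 48 higher and 11 lower in Sham PD, 45 and 6 in 5/6Nx Control and 48 and 7 in 5/6Nx PD. The summed level in LV was 1.55 times that in kidney in Sham PD, 1.94 times in 5/6Nx Control and 2.10 times in 5/6Nx PD rats in normalized reads. Per M reads these ratios were 1.34 in Sham PD, 1.32 in 5/6Nx Control and 1.39 in 5/6Nx PD, beside 1.46 in Sham Control, so that the ratio was larger after 5/6Nx among PD rats and smaller after 5/6Nx among Control rats.

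By class, in Sham Control rats 24 of 26 conserved large subunit proteins were higher in LV than in kidney (median 0.81), against 17 of 21 mitochondria-specific ones (median 0.47). Of all 16520 genes tested, 37.4% were higher and 41.2% lower. In the small subunit 12 of 16 conserved proteins (median 0.59) and 6 of 10 mitochondria-specific ones (median 0.55) were higher. The 26 nuclear respiratory chain subunits were all higher in LV with a median of 1.69, among them Cyc1 at 1.87. Aminoacyl-tRNA synthetases were higher in 5 of 17 and lower in 7 (median -0.08), in neither direction above the share of all genes, with Hars2 at 0.78 and Pars2 at -0.90. Translation factors were higher in 9 of 15 and lower in 3.

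The small subunit took a smaller share of the reads of the 73 mitoribosome members in LV than in kidney. Its share was 31.9 ± 0.541% in 5/6Nx PD, 32.2 ± 0.796% in 5/6Nx Control, 33.2 ± 0.605% in Sham PD and 32.7 ± 0.333% in Sham Control LV (SD, n = 7 and 6 libraries per group after 5/6Nx and Sham surgery). In kidney it was 36.7 ± 0.373% in 5/6Nx PD, 36.5 ± 0.622% in 5/6Nx Control, 37.1 ± 0.689% in Sham PD and 37.0 ± 0.325% in Sham Control. The share does not depend on the scaling of a library, and the highest LV library, at 33.8%, lay below the lowest kidney library, at 35.8%. It includes Mrps6, which was higher in kidney than in LV and whose gene overlaps Slc5a3. The part of Mrps6 in this difference was not tested. Within a tissue the groups overlapped.

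In LV the members with the most reads were Mrpl12, Mrpl54 and Mrpl15, with means of 17699.7, 9028 and 8992 over all LV libraries, and those with the fewest were Mrpl49, Mrpl1 and Mrps10, with 623, 737 and 874. In kidney they were Mrpl12, Mrpl15 and Mrps6 with 7022, 6116 and 5668, and again Mrpl49, Mrpl1 and Mrps10 with 372, 387 and 601. Mrpl1 varied most among libraries of a group, with a coefficient of variation of 50.1% in kidney of 5/6Nx PD rats. The 3 rows spelled in lower case moved with the members in LV of PD rats. There mrpl11 was higher in 5/6Nx PD than in Sham PD by 0.31, mrpl24 by 0.30 and mrpl9 by 0.28 on the log2 scale, with adjusted p of 0.019, 0.033 and 0.029 (limma).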

How the data were processed

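Polyadenylated RNA of pulverised LV and kidney was sequenced from stranded libraries. The authors trimmed reads with Trim Galore and cutadapt, aligned them to rn6 with HISAT2 (version 2.1.1 in the submitters' processing notes), quantified genes with StringTie2 and used DESeq2. They deposited log2 values that follow a variance stabilising transformation over all 52 libraries, with a floor of 5.92 for 0 reads. Inverting it gave normalized reads and whole reads (largest deviation 7.5e-08). A difference on this log2 scale understates the fold, most for genes with few reads. The authors' group means and their tables of log2 fold changes, p-values and adjusted p-values between PD and Control were not used.

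Each comparison was fitted with limma 3.58.1 (lmFit, eBayes with trend and robust, statmod 1.5.0, R 4.3.3) on the deposited log2 values of the whole table. A gene was tested where the count of libraries with 10 or more normalized reads reached the size of the smaller group. The threshold was an adjusted p (Benjamini-Hochberg, all genes tested) of 0.05. Folds compare mean normalized reads, and SEs are on the log2 scale. Members and lists were chosen with earlier results of these data known. Groups came from the labels, which make each library 1 sample of its group. No library repeated another of its group, since the chi-square per degree of freedom between their reads was at least 21.8. Named members follow a rule: up to 6 per direction and comparison by adjusted p (3 by p where none passed), the highest and lowest levels per tissue, the extremes between tissues, and the disease, stalk and Mrps18 genes. Scaling, filter, limma-voom, array quality weights, one fit per tissue and omission of single libraries were the alternatives. Scaling per M reads was added after seeing the data for all but the comparisons between tissues, and a replicate block on library numbers for those. Counts of members and list genes past the threshold per M reads are given without the share of all genes on that scale. The fits were tested on simulated data. RefSeq names of GRCr8 matched 73 members, and 16 of them overlapped another coding gene.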

Additional observations from a re-analysis of the deposited data

Results flagged for a closer look

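Of 290 groups of values checked, 43 held a library whose distance to its nearest neighbour passed the 95% critical value of Dixon's test, where chance gives about 1 in 20. Most came from 3 libraries, each higher than the rest of its group, and the group median is given in parentheses after each value in normalized reads. Replicate 1 of LV 5/6Nx Control had a summed level of 417571 (300084). This library had Mrpl12 at 26937 (17989.8), Mrpl15 at 11777 (8761), Mrpl28 at 7062 (5321), Mrpl36 at 2744 (1564), Mrpl39 at 1844 (1453), Mrpl40 at 6455 (4749), Mrpl42 at 10973 (7150.4) and Mrpl44 at 4010.4 (3012). It also had Mrpl45 at 8737 (6746), Mrps12 at 4193 (2536), Mrps15 at 11131 (7670.0), Mrps18c at 3711 (2746), Mrps25 at 5734 (3733), Mrps36 at 12228 (8239) and Mrps6 at 3746 (2480.3). Replicate 1 of kidney 5/6Nx Control had Mrpl13 at 2939 (2341), Mrpl14 at 1812 (1275), Mrpl23 at 3134 (1471), Mrpl45 at 3229.9 (2184), Mrpl52 at 5196 (3012) and Mrpl55 at 2103 (1275). It also had Mrps11 at 2524 (1779), Mrps12 at 2481 (1749.9), Mrps15 at 3833 (2662), Mrps16 at 3624 (2703) and Mrps18a at 3436 (2498). Replicate 6 of kidney Sham PD had a summed level of 213248 (163241). This library had Mrpl12 at 10185 (7021), Mrpl13 at 3335 (2251), Mrpl15 at 8768 (6477), Mrpl40 at 1849 (1573) and Mrpl42 at 2384 (1887). It also had Mrpl52 at 3348 (2479), Mrps12 at 2275 (1589), Mrps16 at 3888 (2532), Mrps31 at 3109 (2328) and Mrps6 at 9898 (5437). Replicate 5 of LV Sham PD had Mrpl10 at 2065 (2404), the lowest of its group. Replicate 6 of LV Sham PD had Mrpl15 at 9061 (7568) and Mrps31 at 2593 (2154). Replicate 2 of LV Sham PD had Mrpl49 at 786 (382). Replicate 3 of kidney Sham Control had Mrpl52 at 2978 (2165). 

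Mrps30 in LV differed in its change with PD between surgeries, with an interaction of 0.55 on the log2 scale (adjusted p = 0.044, limma), and its adjusted p was 0.019 to 0.090 when 1 library was left out.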

How the results depend on the processing

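No named member past the threshold changed direction under any alternative run, but the member median in kidney between surgeries was 0.18 in Control and 0.10 in PD rats per M reads, against -0.02 and -0.07 in deposited values. With array quality weights, 6 members passed for PD against Control in LV of Sham rats and 7 for the LV interaction. Per M reads, 27 members passed for LV of PD rats between surgeries, 35 for kidney of Control rats between surgeries and 2 for the LV interaction, and without the filter on low values 0 passed for the interaction. Leaving out 1 library gave 0 to 6 members for PD against Control in LV of Sham rats, 37 to 62 for LV of PD rats and 13 to 24 for kidney of Control rats between surgeries, 3 to 11 for kidney of PD rats between surgeries, and 0 to 6 for the LV interaction. The interaction count was 6 without replicate 1 of LV 5/6Nx Control. In these cases the cause was not tested. Per M reads, 7 values of named members were no longer past the threshold and 79 stayed on their side of it. The counts over both directions under limma-voom and size factors within the fit stayed within 1.5 times in all 16 comparisons. In kidney of Control rats between surgeries, though, 9 members, against 14, were lower with such size factors. With limma-voom, 9 of those 14 stayed past the threshold. The depth of at least 16.7 M reads left all 74 members above the filter in all 16 comparisons. LV and kidney libraries of a group carry numbers 26 apart, which no label ties to a rat. A replicate block on these numbers, chosen after seeing the data, gave 71 members past the threshold between tissues in 5/6Nx PD rats (70 without the block), 69 in 5/6Nx Control (68), 62 in Sham PD (61) and 63 in Sham Control (63). The deviations from the group means correlated over genes at -0.26 to 0.38 (median 0.14) in the 26 pairs, over 0.1 in 16. Of the LV libraries, 12 correlated best with the kidney library of their own number, among 6 or 7 kidney libraries per group. This is more often than an arbitrary numbering would give. The numbers were still not taken as pairs, since no label ties them to a rat.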
